A study of Mus musculus with 12 samples.

Results

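The RNA polymerase II and elongation control genes described here are 10 genes chosen by name: Polr2a, Polr2b and Polr2c of the polymerase, Cdk9, Ccnt1 and Hexim1 of the P-TEFb kinase and its inhibitor, and the elongation factors Ell2, Supt5, Supt6 and Nelfe. The choice was made with earlier results of these data known. All 10 were found, each as 1 representative transcript, among 15803 listed transcripts. All 10 passed the filter on low values in both assays. The cells were KPC, a mouse pancreatic ductal adenocarcinoma line, from mice with the Trp53 allele LSL-R172H and Pdx1-Cre, which drives recombination in pancreatic progenitors, and every group was the same line. The PBS group was labelled as untreated. Its label gives no time, and the methods give PBS for 6 h or 21 h without saying which applied to these libraries. The other groups received cisplatin (Cis), a platinum drug that crosslinks DNA, at 20 μM for 6 h or 21 h. The same PBS libraries served both times, so length of Cis exposure and time in culture cannot be told apart. Ribosome-protected fragments (footprints) and RNA were each sequenced from 2 libraries a group, 12 in all. The methods state in general that experiments were repeated or used independent samples, but not whether these libraries came from separate cultures, so p-values measure the spread between these libraries, which may be technical. The question was whether the transcripts and the translation of the genes that run transcription changed after Cis.

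RNA polymerase II transcribes the protein-coding genes. Its largest subunit, RPB1, is the product of Polr2a and carries the catalytic centre and the C-terminal repeat tail that kinases phosphorylate during the transcription cycle, and RPB2, from Polr2b, completes the active site. Soon after starting, the enzyme is held by DSIF (which contains SPT5, from Supt5) and NELF (which contains NELFE). P-TEFb, made of the kinase CDK9 and a cyclin such as cyclin T1 (Ccnt1), phosphorylates these factors and the tail and lets elongation proceed. Much of P-TEFb is kept inactive by HEXIM1 bound to the 7SK RNA. ELL2 is a scaffold-bound elongation factor of the super elongation complex, and SPT6 (Supt6) is a histone chaperone that travels with the polymerase.

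Footprint libraries held 3375480 to 5204127 reads assigned to transcripts and RNA libraries 1985344 to 2901692, of which the 3 transcripts Lars2, Tmem38b and Mettl26 took 51.8 to 56.6%. Values are RPKM, reads scaled to the length counted and to the size of the library, with footprints counted over the coding sequence and RNA over the whole transcript. Levels are thus relative to the other transcripts of a library, and a rise or fall is no measure of absolute amount. Differences are log2 values of scaled RPKM plus 0.5, with the standard error (SE) from limma and p-values adjusted (Benjamini-Hochberg) over all tested transcripts, 10383 for footprints and 9443 for RNA. A gene was called when its adjusted p was under 0.05. With 2 libraries against 2, an exact permutation test of 1 gene cannot go below 0.333. Of 7 markers of pancreatic cancer epithelium, 6 were at 1 RPKM or more in both PBS libraries of either assay, as were 1 of 4 immune markers in footprints and none in RNA, 1 of 4 acinar and islet markers in both assays, and none of endothelium or fibroblasts. The epithelial marker that fell short was Epcam. The immune marker was Cd68, with footprints of 1.34 to 2.35 RPKM in PBS and 2.85 to 5.40 at 21 h, on 18 and 30 reads. Its RNA had 4 reads in PBS and 14 at 21 h. The acinar one was Cela1, with footprints of 1.69 to 3.23 and 6.10 to 6.12 RPKM, on 19 and 35 reads. Cela1 RNA went the other way, from 2.20 to 2.80 RPKM in PBS to 0.43 to 2.32 at 21 h, on 15 and 7 reads. Their part in the results was not tested. In bulk samples, fewer cells and less RNA per cell cannot be told apart.

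Promoter sequence from RefSeq (GRCm38.p6, a build other than the GRCm39 of the deposited values) was matched by symbol for 9 of the 10 genes. The 250 bases before the annotated start are given for the 3 genes that rose most, Polr2a, Hexim1 and Ccnt1, and for Polr2b and Ell2, a second polymerase subunit that moved little and an elongation factor that was not called. Capitals mark, on either strand, the TATA box (TATAAA), the CCAAT box, the GC box (GGGCGG) and the cyclic AMP response element (TGACGTCA).
Polr2a chr11:69758634-69758883 (minus strand): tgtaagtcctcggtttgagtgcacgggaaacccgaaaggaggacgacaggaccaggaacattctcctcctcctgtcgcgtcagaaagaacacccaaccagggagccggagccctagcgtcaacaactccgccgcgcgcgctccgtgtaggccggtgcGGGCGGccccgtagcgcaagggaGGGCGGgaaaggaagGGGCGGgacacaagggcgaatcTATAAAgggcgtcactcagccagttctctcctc
Hexim1 chr11:103116075-103116324 (plus strand): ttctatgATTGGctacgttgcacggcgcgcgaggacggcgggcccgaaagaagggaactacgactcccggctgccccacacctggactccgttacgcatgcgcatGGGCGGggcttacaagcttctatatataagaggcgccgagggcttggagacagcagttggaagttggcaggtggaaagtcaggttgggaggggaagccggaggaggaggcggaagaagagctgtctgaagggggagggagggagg
Ccnt1 chr15:98567737-98567986 (minus strand): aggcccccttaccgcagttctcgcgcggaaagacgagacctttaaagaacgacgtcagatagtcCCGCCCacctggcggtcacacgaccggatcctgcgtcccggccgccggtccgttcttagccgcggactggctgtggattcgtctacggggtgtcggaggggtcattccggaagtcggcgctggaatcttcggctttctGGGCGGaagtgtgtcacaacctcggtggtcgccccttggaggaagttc
Polr2b chr5:77310234-77310483 (plus strand): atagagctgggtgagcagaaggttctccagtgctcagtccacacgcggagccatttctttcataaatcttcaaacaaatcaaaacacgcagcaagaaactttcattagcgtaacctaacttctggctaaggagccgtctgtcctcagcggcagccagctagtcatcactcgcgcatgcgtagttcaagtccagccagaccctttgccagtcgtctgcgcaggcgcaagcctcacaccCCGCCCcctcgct
Ell2 chr13:75707234-75707483 (plus strand): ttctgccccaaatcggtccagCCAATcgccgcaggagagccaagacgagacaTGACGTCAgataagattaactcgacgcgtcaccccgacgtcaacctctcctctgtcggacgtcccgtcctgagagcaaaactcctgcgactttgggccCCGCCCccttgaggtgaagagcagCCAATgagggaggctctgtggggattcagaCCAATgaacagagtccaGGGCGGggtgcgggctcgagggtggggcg
The letters TATAAA stood at positions -33 to -28 before the Polr2a start and at -151 to -146 in Polr2c, so 2 of 9 matched genes held them, against 12.4% of 32851 promoter windows of this length. GGGCGG was held by 7 of the 9 (Polr2a, Polr2b, Cdk9, Ccnt1, Hexim1, Ell2 and Supt5), against 32.7% of all windows, and Polr2a had 3 copies, all between -93 and -50. CCAAT was present in Polr2c, Cdk9, Hexim1 and Ell2, 4 of 9, against 33.8%. TGACGTCA was found in Ell2 alone, at -198 to -191, against 1.55% of windows. CACGTG, the E-box, was in none of the 9 and in 6.02% of windows. GC content ran from 45.6% in Polr2c to 78.8% in Cdk9, and was 62.8% in both Polr2a and Ccnt1. No motif searched was shared by Polr2a, Hexim1 and Ccnt1 but absent from both Polr2b and Ell2.

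After 21 h of Cis, 7 of the 10 genes rose in footprints and none fell, against 18.9% of all tested transcripts called higher and 20.2% called lower. Polr2a rose most, 4.78-fold, followed by Hexim1 at 3.31-fold and Ccnt1 at 2.39-fold. Supt5, Supt6, Cdk9 and Polr2b rose by 1.29-fold to 1.53-fold, and Polr2c, Ell2 and Nelfe did not pass the test. RNA moved alongside, with 5 of 10 called higher and none lower, against 11.6% of all transcripts called higher and 12.2% called lower. After 6 h, Hexim1 footprints were the single call, against 1.05% of transcripts called higher and 0.992% called lower. The median difference over the 10 genes at 21 h was 0.57 in footprints and 0.61 in RNA, beside 0.01 and 0.02 over all tested transcripts. Because the genes were chosen with earlier results of these data known, these counts and medians are a description and no test of the set.

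**Figure D1:**
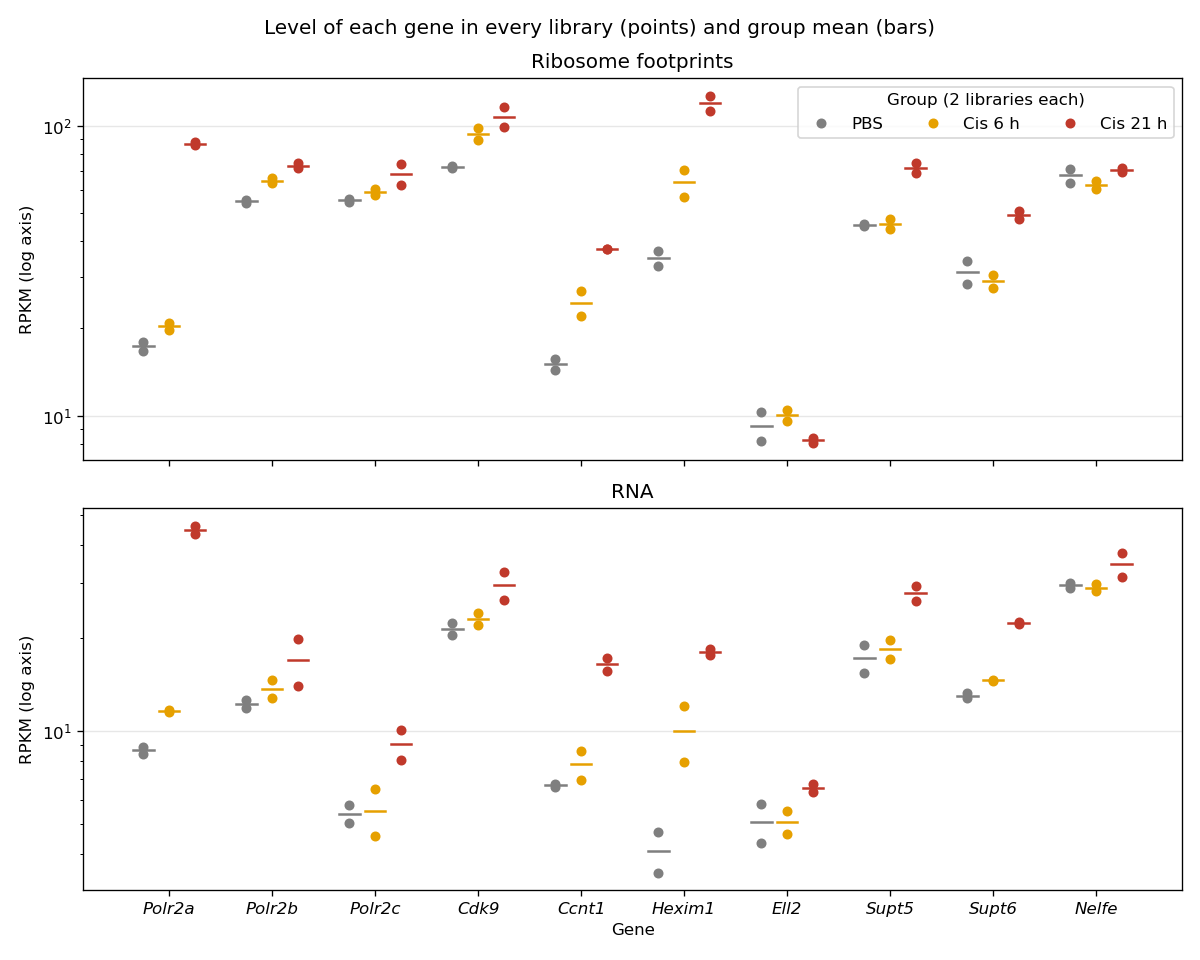
RPKM (log axis) of each of the 10 genes in every footprint library (top) and RNA library (bottom), with points for libraries and bars for the mean of the 2 libraries of PBS, Cis 6 h and Cis 21 h. Polr2a sits below 21 RPKM in the PBS and 6 h footprints and above 85 at 21 h, while the 3 groups of Nelfe lie close together.

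Polr2a is the gene of the catalytic subunit. Its footprints were 18.0 and 16.7 RPKM in PBS, 20.9 and 19.8 at 6 h, and 85.4 and 88.1 at 21 h. Its RNA was 8.44 and 8.90 RPKM in PBS, 11.7 and 11.5 at 6 h, and 43.3 and 46.1 at 21 h. Both 21 h libraries stood far above the other 4 in either assay, and both 6 h libraries were just above both PBS libraries. The 21 h difference was 2.26 (SE 0.11, adjusted p = 7.95e-06) in footprints, where Polr2a ranked 28 of 10383 from the largest rise, and 2.22 (SE 0.13, adjusted p = 2.95e-05) in RNA, where it ranked 19 of 9443. At 6 h the difference was 0.21 (SE 0.11, adjusted p = 0.329) in footprints and 0.46 (SE 0.13, adjusted p = 0.293) in RNA, neither past the threshold. The 21 h footprint libraries held 1861 and 1818 reads for Polr2a, against 553 and 459 in PBS, and no other of the 10 genes had as many at 21 h.

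Polr2b encodes the second-largest subunit, which shares the active centre with RPB1. Its footprints were 55.5 and 54.0 RPKM in PBS, 65.8 and 63.2 at 6 h, and 71.2 and 74.3 at 21 h. The groups did not overlap and stood in the order PBS, 6 h, 21 h. The difference at 21 h was 0.37 (SE 0.10, adjusted p = 0.0151), and it was past the threshold no longer when PBS replicate 1 (adjusted p = 0.0543), PBS replicate 2 (0.0578) or 21 h replicate 2 (0.0578) was left out, or under quantile normalization (0.0523). Polr2b RNA was 11.9 and 12.6 RPKM in PBS and 14.0 and 19.9 at 21 h, with a spread between the 21 h libraries that was wider than their distance from PBS, and a difference of 0.35 (SE 0.18, adjusted p = 0.182).

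Polr2c encodes RPB3, part of the platform on which the enzyme assembles. Its footprints were 56.0 and 54.7 RPKM in PBS, 57.6 and 60.3 at 6 h, and 62.2 and 73.5 at 21 h. Both 21 h values were above PBS, but the difference of 0.25 (SE 0.11, adjusted p = 0.110) did not pass, and its 95% interval ran from -0.01 to 0.50. Polr2c RNA stood at 5.76 and 5.06 RPKM in PBS and at 8.08 and 10.1 at 21 h, a difference of 0.61 (SE 0.22, adjusted p = 0.0754). That RNA difference passed in limma with no scaling (adjusted p = 0.0496) and with voom on the recovered reads (adjusted p = 0.0106). The listed Polr2c transcript has 1317 coding bases in 3881, and its level depends on that choice of transcript.

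RPB1 and RPB2 stand in equal number in the enzyme, and the ratio of their RPKM values was taken in each library. In footprints the Polr2a to Polr2b ratio was 0.324 and 0.309 in PBS, 0.317 and 0.313 at 6 h, and 1.20 and 1.19 at 21 h. In RNA it was 0.712 and 0.704 in PBS, 0.914 and 0.786 at 6 h, and 3.09 and 2.32 at 21 h. Polr2a thus passed from below Polr2b to above it in footprints, with 6 h indistinguishable from PBS there. An exact two-sided permutation test of the 4 Cis libraries against the 2 PBS libraries gave p = 0.533 in footprints and p = 0.133 in RNA, where 0.133 is the smallest p this design allows. That permutation test pooled the 6 h libraries with the 21 h libraries. In footprints both 6 h ratios lay between the 2 PBS ratios, so the pooled test cannot decide on the shift at 21 h. The ratio at 21 h alone was not tested against PBS. Footprints and RNA are not on 1 scale, so the ratio is compared within an assay only.

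**Figure D2:**
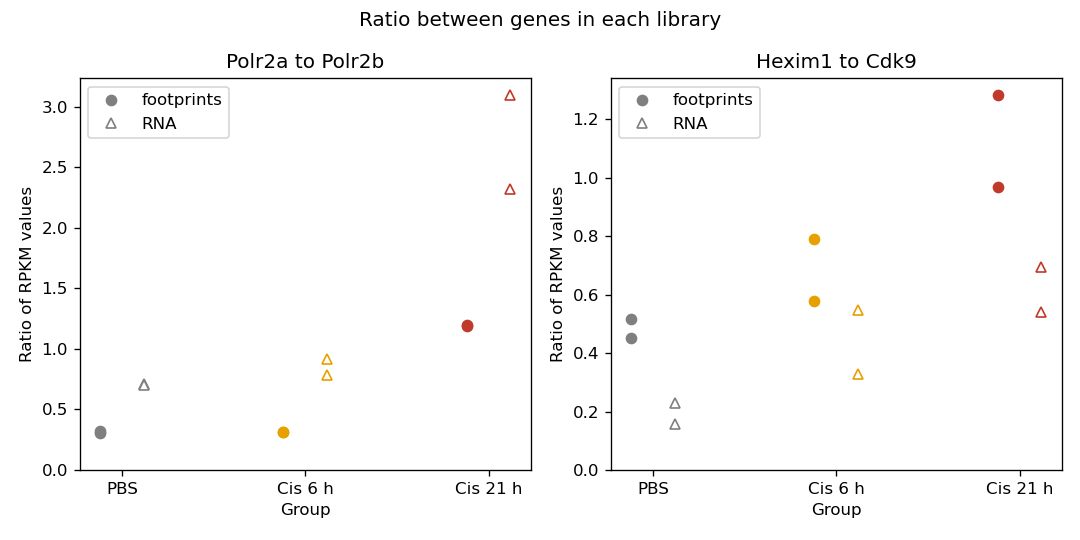
Ratio of RPKM values between 2 genes in each library, Polr2a to Polr2b (left) and Hexim1 to Cdk9 (right), with filled circles for footprints and open triangles for RNA. In footprints the Polr2a to Polr2b ratio stays near 0.31 in PBS and at 6 h and is about 1.2 at 21 h, while the Hexim1 to Cdk9 ratio is higher at 6 h than in PBS and higher again at 21 h.

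The other 10 genes named as polymerase subunits, Polr2d to Polr2m, were all tested. At 21 h, 4 of them were called higher in footprints and none lower, against 18.9% and 20.2% of all tested transcripts, with a median of 0.22. In RNA, where 11.6% of transcripts were called higher and 12.2% lower, none was called in either direction at a median of 0.19, with 2 at an unadjusted p under 0.05 and 1 called by limma with the replicate number as a block. The 2 largest footprint rises were in Polr2g and Polr2d, whose products RPB7 and RPB4 form the stalk of the enzyme. Polr2g footprints were 190 and 170 RPKM in PBS and 297 and 324 at 21 h, a difference of 0.75 (SE 0.09, adjusted p = 0.000504). Polr2d stood at 248 and 205 RPKM in PBS and at 363 and 351 at 21 h, a difference of 0.62 (SE 0.09, adjusted p = 0.00121). Polr2l (0.33) and Polr2j (0.28) were the other two called. The largest difference among the other 12 genes of the Polr2 series was thus 0.75, against 2.26 for Polr2a, and Polr2a had the lowest footprint level of the 13 in PBS, at 17.3 RPKM ± 0.93 (SD, n = 2).

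**Figure D3:**
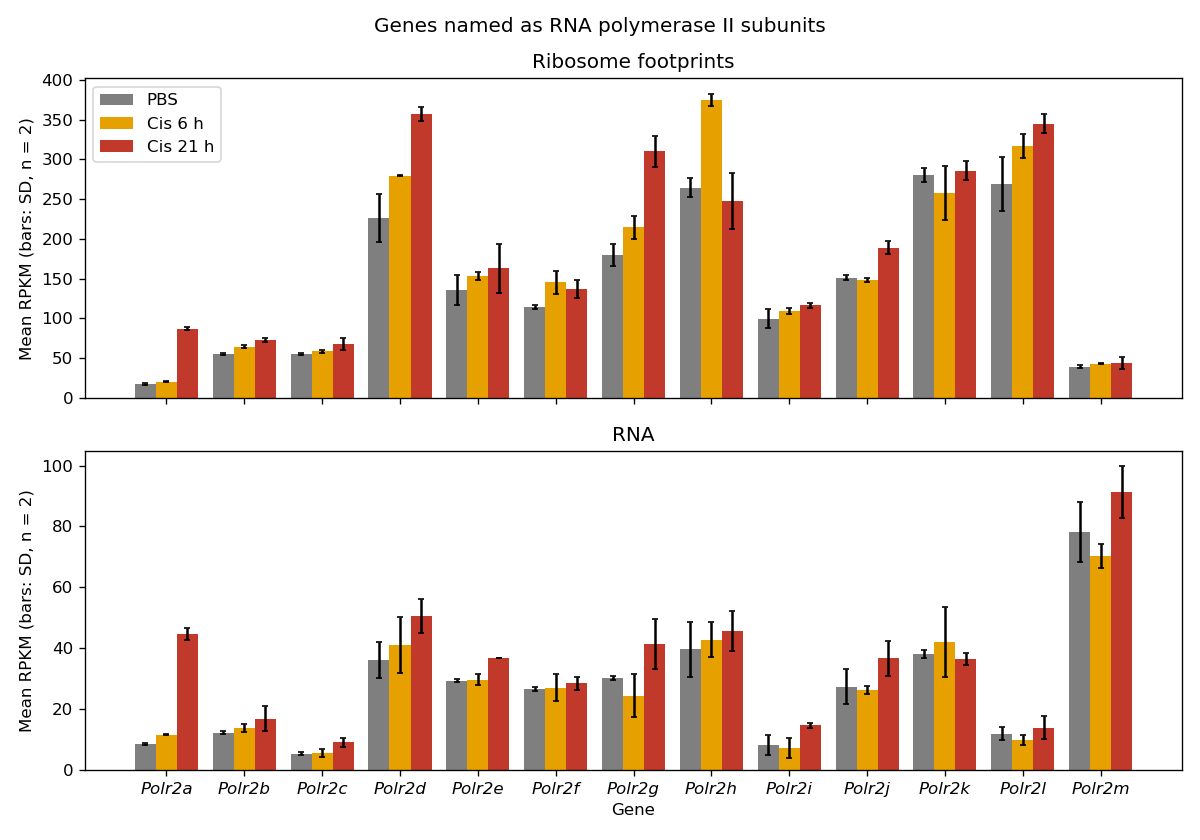
Mean RPKM of the 13 genes Polr2a to Polr2m in footprints (top) and RNA (bottom) for PBS, Cis 6 h and Cis 21 h, with error bars for the SD of 2 libraries. Polr2a is the lowest in PBS footprints and rises from 17.3 to 86.7 RPKM at 21 h, whereas Polr2b goes from 54.8 to 72.7.

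Both P-TEFb genes and their inhibitor were called higher in footprints at 21 h, and Hexim1 at 6 h as well. Cdk9, the kinase, had footprints of 72.7 and 71.3 RPKM in PBS, 98.2 and 89.2 at 6 h, and 98.7 and 116 at 21 h. All 4 Cis libraries were above both PBS libraries, while the upper 6 h and the lower 21 h value were nearly equal. The difference was 0.36 (SE 0.11, adjusted p = 0.115) at 6 h and 0.53 (SE 0.11, adjusted p = 0.00551) at 21 h. Cdk9 RNA went from 22.3 and 20.5 RPKM in PBS to 26.5 and 32.6 at 21 h, a difference of 0.37 (SE 0.14, adjusted p = 0.0809) that missed the threshold. It passed in limma when deposited RPKM was used with no scaling (adjusted p = 0.0474).

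Ccnt1 encodes cyclin T1, the partner that CDK9 needs for activity. Its footprints were 15.7 and 14.4 RPKM in PBS, 22.0 and 26.9 at 6 h, and 37.5 and 37.6 at 21 h. Its RNA was 6.75 and 6.62 RPKM in PBS, 8.65 and 6.97 at 6 h, and 15.6 and 17.3 at 21 h. No library of a later group fell to the level of an earlier one in either assay. At 21 h the difference was 1.26 (SE 0.14, adjusted p = 0.000283) in footprints and 1.15 (SE 0.18, adjusted p = 0.00187) in RNA. At 6 h the footprint difference of 0.66 (SE 0.14) had an adjusted p of 0.0518, just outside the threshold, and it passed under 7 of 16 alternatives, with an adjusted p between 0.00147 and 0.271 over all of them.

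Hexim1 encodes the protein that, with 7SK RNA, holds P-TEFb inactive. Footprints stood at 32.7 and 37.0 RPKM in PBS, 56.9 and 70.5 at 6 h, and 127 and 113 at 21 h. RNA stood at 3.49 and 4.73 RPKM in PBS, 7.93 and 12.0 at 6 h, and 18.4 and 17.7 at 21 h. The 3 groups were apart in both assays, in the order of time. The footprint difference was 0.84 (SE 0.13, adjusted p = 0.0289) at 6 h and 1.73 (SE 0.13, adjusted p = 5.68e-05) at 21 h, and the RNA difference 1.94 (SE 0.23, adjusted p = 0.000514) at 21 h. At 6 h the RNA difference was larger than that of the footprints, 1.23 (SE 0.23), and ranked 23 of 9443, but its adjusted p was 0.209, and 0.0% of transcripts were called in RNA at 6 h by limma, against 11.5% with an unadjusted p under 0.05 (2 of the 10 genes, Hexim1 and Polr2a). RNA reads for Hexim1 were few, 30 and 48 in PBS and 55 and 97 at 6 h. With voom on the recovered reads, the 6 h RNA difference of 1.33 passed the threshold (adjusted p = 3.14e-05). The 6 h footprint call was lost when any of the 4 libraries compared was left out, with an adjusted p of 0.126 and 0.0829 without PBS replicate 1 and 2, and of 0.0768 and 0.208 without 6 h replicate 1 and 2. It was also lost with no filter (adjusted p = 0.0798), with no trend (0.103) and with the replicate block (0.0564).

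The Hexim1 to Cdk9 ratio of RPKM values sets the inhibitor against the kinase. In footprints it was 0.451 and 0.518 in PBS, 0.579 and 0.790 at 6 h, and 1.28 and 0.969 at 21 h, so every Cis library stood above both PBS libraries. In RNA it was 0.157 and 0.231 in PBS, 0.329 and 0.547 at 6 h, and 0.695 and 0.542 at 21 h, where 6 h and 21 h overlapped. The mean log2 difference between Cis and PBS was 0.85 in footprints and 1.42 in RNA. The exact two-sided permutation p was 0.133 for each, the smallest that this test can give with 4 against 2.

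Among the 6 other P-TEFb and 7SK genes counted, 2 were called higher in footprints at 21 h and none lower, against 18.9% and 20.2% of all transcripts, with a median of 0.40. In RNA, 4 were called higher and none lower, against 11.6% and 12.2%, with a median of 0.65. Mepce, the enzyme that caps 7SK RNA, was called in both assays. Its footprints were 23.0 and 27.2 RPKM in PBS and 49.0 and 47.9 at 21 h, a difference of 0.90 (SE 0.13, adjusted p = 0.00101), and its RNA rose by 0.79 (SE 0.19, adjusted p = 0.0159). Srsf2, a splicing factor that also acts on paused polymerase, rose in footprints by 0.47 (SE 0.11). In RNA the other 3 calls were Hexim2 (1.03), Ccnt2 (0.84) and Larp7 (0.50), which encode a second HEXIM protein, a second cyclin and the protein that stabilises 7SK. With the replicate number as a block, the RNA count was 2.

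**Figure D4:**
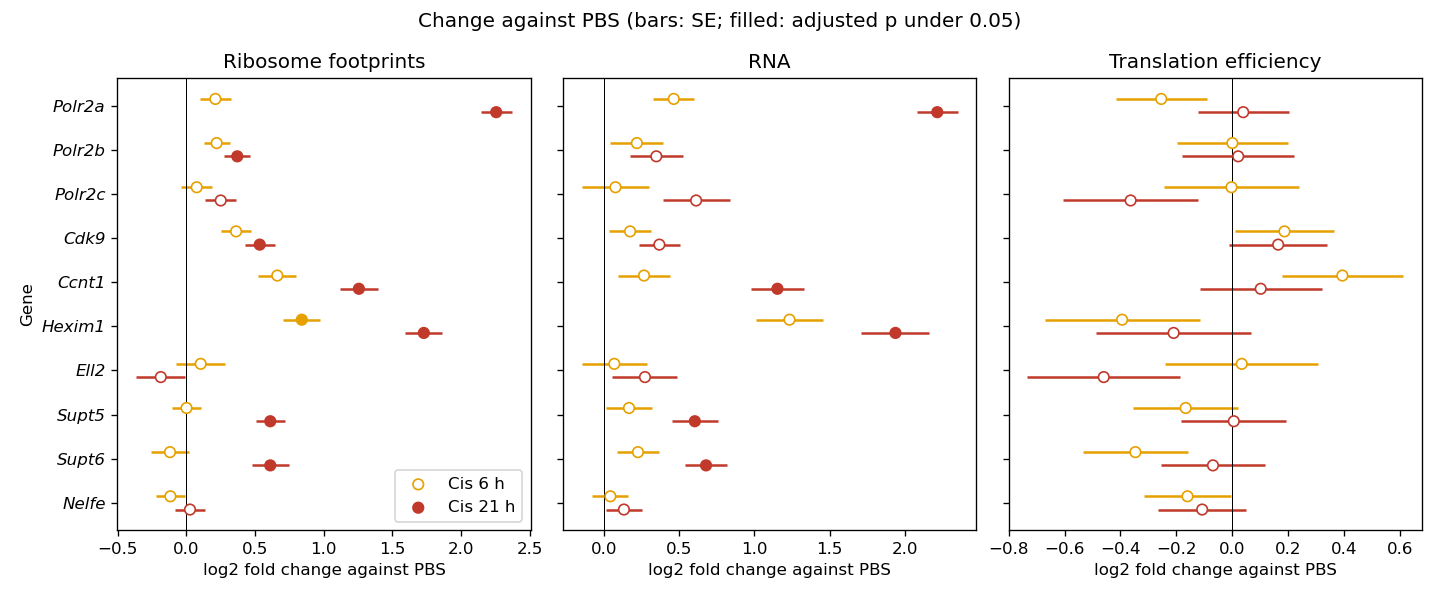
Log2 difference from PBS for the 10 genes in footprints (left), RNA (middle) and translation efficiency (right), at Cis 6 h and Cis 21 h, with bars for SE and filled points for adjusted p under 0.05. At 21 h 7 footprint and 5 RNA points are filled, at 6 h Hexim1 footprints alone, and no translation efficiency point is filled.

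Ell2 was the least abundant of the 10 in footprints and did not follow the rest. Its footprints were 10.3 and 8.17 RPKM in PBS, 10.5 and 9.58 at 6 h, and 8.07 and 8.36 at 21 h. Its RNA was 4.36 and 5.82 RPKM in PBS, 5.52 and 4.65 at 6 h, and 6.37 and 6.77 at 21 h. The 21 h libraries met the lower PBS library in footprints, below both PBS libraries only once scaled, and lay just above PBS in RNA. Neither difference passed, at -0.19 (SE 0.18, adjusted p = 0.439, 95% interval -0.60 to 0.22) in footprints and 0.27 (SE 0.22, adjusted p = 0.398) in RNA. With 56 to 103 footprint reads a library, small differences were not detectable at this depth. Of 6 tested genes among 8 of the super elongation complex, Mllt3, whose product reads acylated histones, was the one called in footprints at 21 h, which fell by 1.29 (SE 0.22, adjusted p = 0.00211), beside 20.2% of all transcripts called lower. Mllt3 RNA fell by 1.16 (SE 0.29, adjusted p = 0.0178), and Eaf1, an ELL-associated factor, was higher in RNA by 1.07 (SE 0.16, adjusted p = 0.0018). Eaf1 footprints at 6 h differed from PBS by 1.01 (SE 0.21, adjusted p = 0.0512 in limma), just outside the threshold.

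Supt5 encodes the large subunit of DSIF. Its footprints were 44.9 and 45.9 RPKM in PBS, 44.1 and 47.8 at 6 h, and 74.3 and 68.6 at 21 h. RNA was 18.9 and 15.4 RPKM in PBS, 19.7 and 17.1 at 6 h, and 26.3 and 29.4 at 21 h. In footprints the 6 h pair spanned the PBS pair, and in both assays the 21 h pair was apart from all others. The 21 h difference was 0.61 (SE 0.11, adjusted p = 0.00236) in footprints and 0.60 (SE 0.15, adjusted p = 0.0191) in RNA. The RNA call was lost in limma without a trend (adjusted p = 0.0667) and without PBS replicate 2 (adjusted p = 0.139), 21 h replicate 1 (0.0540) or 21 h replicate 2 (0.0910).

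Supt6 resembled Supt5 in the order of its groups. Footprints were 28.5 and 34.2 RPKM in PBS, 27.5 and 30.6 at 6 h, and 50.6 and 47.8 at 21 h. RNA was 12.8 and 13.2 RPKM in PBS, 14.7 and 14.5 at 6 h, and 22.6 and 22.2 at 21 h. The PBS and 6 h footprints overlapped, and the 21 h libraries were above all of them. At 21 h the difference was 0.61 (SE 0.14, adjusted p = 0.00765) in footprints and 0.68 (SE 0.14, adjusted p = 0.0071) in RNA, and the footprint call was just lost without PBS replicate 1 (adjusted p = 0.0524).

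Nelfe encodes the RNA-binding subunit of NELF, which acts with DSIF to pause the polymerase. Its footprints were 63.5 and 71.1 RPKM in PBS, 64.7 and 60.5 at 6 h, and 71.2 and 69.2 at 21 h. Nelfe RNA was 29.1 and 30.02 RPKM in PBS, 29.8 and 28.3 at 6 h, and 31.5 and 37.5 at 21 h. PBS and 21 h footprints overlapped. The 21 h difference was 0.03 (SE 0.11, adjusted p = 0.871, 95% interval -0.22 to 0.27) in footprints, turning to -0.07 under quantile normalization, and 0.13 (SE 0.12, adjusted p = 0.460) in RNA.

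Of the 4 listed partners in NELF and DSIF, 3 were called higher in footprints at 21 h, against 18.9% of all transcripts. None was called in RNA or had an unadjusted p under 0.05 there, which says little for 4 genes beside 11.6% of transcripts called higher. Supt4a, the small subunit of DSIF that binds SPT5, had footprints of 113 and 108 RPKM in PBS and 192 and 185 at 21 h, a difference of 0.74 (SE 0.08, adjusted p = 0.000339). Nelfcd rose by 0.47 (SE 0.13, adjusted p = 0.0174) and Nelfb by 0.41 (SE 0.10, adjusted p = 0.0117), both subunits of NELF. Supt4a RNA differed by 0.40 (SE 0.23, adjusted p = 0.226), and whether footprints and RNA of Supt4a differed was tested as translation efficiency, with 0.34 (SE 0.28, adjusted p = 0.656) at 21 h.

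Translation efficiency, the ratio of footprints to RNA, was tested in limma by whether the change in footprints differed from that in RNA, in 1 model of all 12 libraries with 9295 transcripts. None of the 10 genes was called at 6 h, at 21 h or between these times, and none had an unadjusted p under 0.05, against 0.0%, 0.409% and 1.01% of transcripts called in either direction and 7.64%, 12.7% and 13.6% with an unadjusted p under 0.05. At 21 h the difference was 0.04 (SE 0.16, adjusted p = 0.955, 95% interval -0.31 to 0.39) for Polr2a and -0.21 (SE 0.28, adjusted p = 0.810, 95% interval -0.81 to 0.39) for Hexim1, whose levels moved most. For Ccnt1 it was 0.10 (SE 0.22, adjusted p = 0.890). The largest in size was that of Ell2, -0.46 (SE 0.27, adjusted p = 0.526), then Polr2c with -0.36 (SE 0.24, adjusted p = 0.570). As a ratio of mean RPKM, footprints to RNA in PBS were 2.00 for Polr2a and 1.82 for Ell2 at the low end, and 8.48 for Hexim1 and 10.2 for Polr2c at the high end. With intervals of this width, small differences in translation efficiency were not detectable.

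Between the times, 5 of the 10 genes were higher in footprints at 21 h than at 6 h and none lower, against 15.0% of transcripts called higher and 15.7% called lower. They were Polr2a (2.05, SE 0.11), Hexim1 (0.89, SE 0.13), Supt6 (0.73, SE 0.14), Supt5 (0.61, SE 0.11) and Ccnt1 (0.59, SE 0.14). In RNA, Polr2a (1.75, SE 0.13) and Ccnt1 (0.89, SE 0.18) were called, against 7.53% of transcripts called higher and 8.21% called lower. Supt6 RNA, at 0.45 (SE 0.14, adjusted p = 0.0519), and Hexim1 RNA, at 0.70 (SE 0.23, adjusted p = 0.0631), lay just outside. Deposited RPKM used with no scaling raised the count to 5 in RNA. It also moved the median of all transcripts to 0.15 and the share of higher ones among all calls from 47.8% to 70.6%. The count was also 5 with voom, and 4 with a filter of 5. The 21 h and 6 h comparisons share the PBS libraries. Beside each other, the footprint differences from PBS at 6 h and 21 h were 0.21 and 2.26 for Polr2a, 0.84 and 1.73 for Hexim1, and 0.36 and 0.53 for Cdk9.

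The order of the 10 footprint levels changed over time, on the RPKM scale. In PBS it ran Cdk9, Nelfe, Polr2c, Polr2b, Supt5, Hexim1, Supt6, Polr2a, Ccnt1 and Ell2, where Polr2c and Polr2b overlapped, as did Hexim1 and Supt6. At 21 h it ran Hexim1, Cdk9, Polr2a, Polr2b, Supt5, Nelfe, Polr2c, Supt6, Ccnt1 and Ell2, where Hexim1 overlapped Cdk9 and the 4 genes from Polr2b to Polr2c each overlapped the next. Polr2a moved from place 8 to place 3 and Hexim1 from 6 to 1. In RNA, Polr2a went from place 6 in PBS to place 1 at 21 h, with no overlap with Nelfe, and Hexim1 from 10 to 6.

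Annotated gene span, the distance from the first to the last base of the gene in RefSeq, was set beside these values because transcripts of long genes were lower after Cis. None of the 10 genes exceeds 100 kb. Tested transcripts of genes over 100 kb had a median footprint difference of -1.08 at 21 h, those of 30 to 100 kb -0.17, those of 10 to 30 kb 0.17 and those under 10 kb 0.20. Polr2a (24.6 kb), Ccnt1 (29.0 kb) and Supt5 (23.9 kb) were all above the median of their class. Polr2b (38.8 kb) and Supt6 (39.2 kb), at 0.37 and 0.61, were above a class median of -0.17, while Ell2, the longest at 64.9 kb, stood at -0.19, close to it. In the shortest class, Hexim1 (3.40 kb) stood at 1.73 and Cdk9 (7.003 kb) at 0.53, Polr2c (6.79 kb) was near the class median at 0.25, and Nelfe (5.98 kb) was below it at 0.03. The part of gene span in these differences was not tested.

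Likeness of pattern was measured as Pearson's r of log2 values over the 12 libraries, each assay centred on its own mean, across 9295 transcripts, as a description. Nearest to Polr2a were Ptgs2 (r = 0.998), Srrt (0.991), Ereg (0.990), Fen1 (0.990) and Nsl1 (0.989). Nearest to Hexim1 were Tob1 (0.980), Mepce (0.973), Cdc25a (0.968), Nans (0.966) and Taf13 (0.965). The 2 patterns were not the same, since Polr2a and Hexim1 had r = 0.872 with each other, and Hexim1 was number 687 in the order of likeness to Polr2a. Among the other 8 genes, Supt6 (0.947), Supt5 (0.945) and Ccnt1 (0.928) were most like Polr2a, and Nelfe (0.531) and Ell2 (0.014) least. All libraries of an assay share their scaling, and 4 of the 12 are 21 h libraries.

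The calls in the other lists at 21 h are set beside those over all tested transcripts, of which 18.9% were called higher and 20.2% lower in footprints, and 11.6% and 12.2% in RNA. In the PAF1 complex and elongation partners, 2 of 13 were called higher in footprints, Paf1 (0.71, SE 0.12) and Leo1 (0.54, SE 0.11), both subunits of that complex, and 2 lower, Tcea1 (-0.24, SE 0.08) and Tcea2 (-1.11, SE 0.34), which encode TFIIS proteins that restart stalled polymerase. The list median was 0.01, and Tcea2 was at 0.92 RPKM at 21 h, with a mean of 3 reads a library. In RNA, 3 of 12 were higher, Ctr9 (0.81), Paf1 (0.61) and the histone chaperone Ssrp1 (0.47). Among 17 genes of the kinases and phosphatases of the C-terminal tail, with their cyclins and other proteins that bind the tail or the kinases, Ctdsp2, a small phosphatase, rose in footprints by 0.58 (SE 0.12), whereas Mnat1, the assembly factor of the CDK7 kinase, fell by 0.89 (SE 0.12, adjusted p = 0.000667) and Rprd1a fell by 0.37 (SE 0.11). Mnat1 RNA fell by 1.48 (SE 0.23, adjusted p = 0.00205) and that of the phosphatase Ctdspl by 1.11 (SE 0.29), and Cdk12 (0.69) with its cyclin Ccnk (0.85) were higher in RNA. In footprints neither of these lists had a larger share of calls in either direction than all transcripts.

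Of 8 general initiation factors, 3 rose in footprints and 2 fell, against 18.9% and 20.2% of all transcripts, with a median of 0.07. The subunits of TFIIE went opposite ways, Gtf2e1 by 0.81 (SE 0.11, adjusted p = 0.000818) and Gtf2e2 by -0.46 (SE 0.09, adjusted p = 0.00529), and so did those of TFIIF, Gtf2f1 by 0.67 (SE 0.10, adjusted p = 0.00113) and Gtf2f2 by -0.46 (SE 0.09, adjusted p = 0.00507). Gtf2b, which bridges polymerase and promoter, rose by 0.36 (SE 0.10), and in RNA Gtf2f1 was the one call, at 0.84 (SE 0.12). Among 14 subunits of Integrator, which cleaves nascent RNA at paused polymerase, Ints12 (0.80, SE 0.12) and Ints13 (0.31, SE 0.10) rose in footprints and none fell, at a median of 0.06, which is a smaller share of rises than the 18.9% over all transcripts, and Ints12 was the one call in RNA (1.39, SE 0.37). The list of Pol I and Pol III subunits held the 18 genes with symbols starting Polr1 or Polr3, 1 of which, Polr1has, is the antisense transcript of Polr1h and no subunit (-0.15 in footprints, adjusted p = 0.647). Of the 18, 5 rose and 1 fell in footprints, at a median of 0.19, and the largest rise was in Polr3d, from 12.1 and 16.7 RPKM in PBS to 31.4 and 31.7 at 21 h (1.09, SE 0.19, adjusted p = 0.0026). The one that fell was Polr3b, by 0.70 (SE 0.23, adjusted p = 0.038). In RNA, Polr3d (1.07) and Polr1h (0.57) were higher and Polr3g (-0.91) lower. Use of strand in the counting was not stated, so reads of Polr1h and its antisense transcript may not be told apart. No gene of these 9 lists was called at 6 h in either assay by limma. Over all transcripts, 1.05% were called higher and 0.992% lower in footprints then, and 0.0% were called in RNA. An unadjusted p under 0.05 in footprints was reached by from 0 of 13 genes (PAF1 list) to 5 of 10 (other Pol II subunits). The share over all transcripts is not given here for footprints. In RNA it was reached by 0 to 2 genes a list, beside 11.5% of all transcripts.

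**Figure D5:**
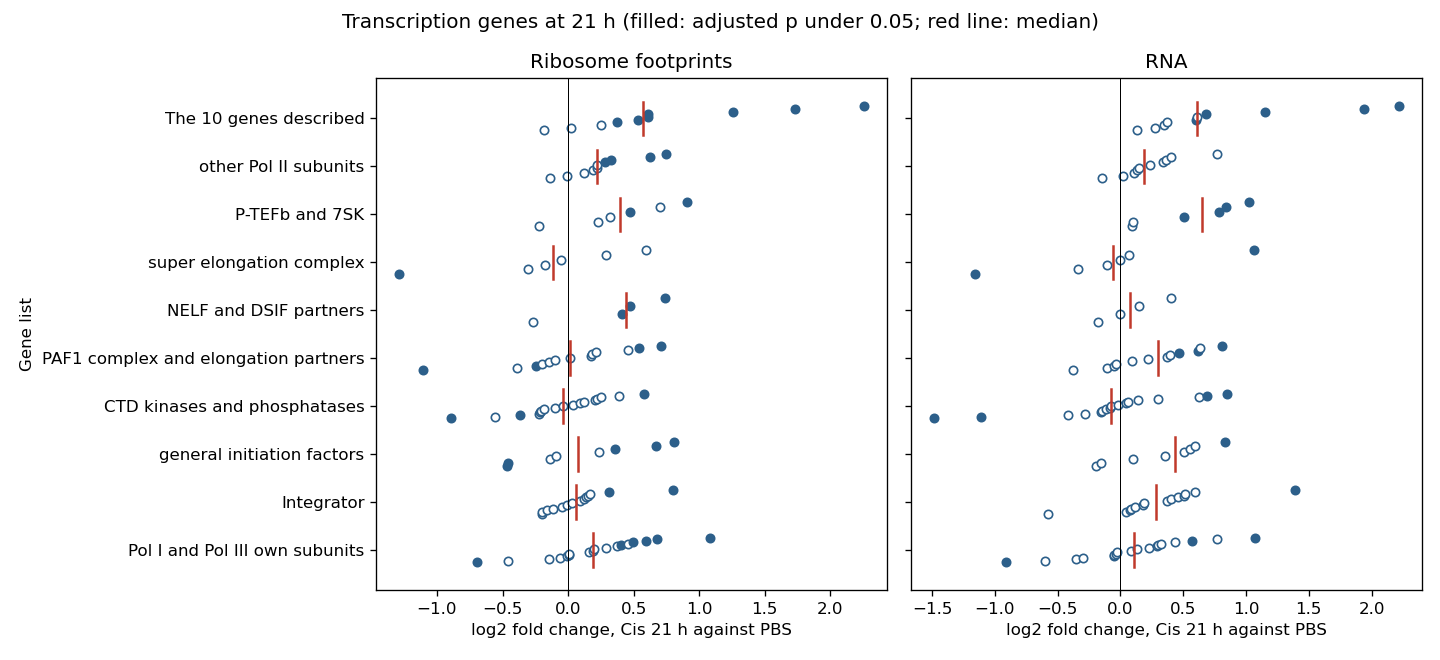
Log2 difference between Cis 21 h and PBS for the 10 genes and for each tested gene of 9 lists of the transcription machinery (that of Pol I and Pol III includes the antisense transcript Polr1has), in footprints (left) and RNA (right), with filled points for adjusted p under 0.05 and a red line at each median. The 10 genes have a median of 0.57 in footprints and 0.61 in RNA, and no gene of the lists reaches the differences of Polr2a or Hexim1.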

How the data were processed

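KPC cells were profiled by ribosome footprinting (RNase I digestion, size selection, small RNA library) and RNA sequencing, with 2 libraries for each of PBS, Cis 6 h and Cis 21 h. The authors deposited RPKM values, 1 representative transcript a gene, with footprints over the coding sequence and RNA over the transcript. The submitters' processing notes name cutadapt, STAR and GRCm39, with no versions or roles. RPKM times length gave whole reads for all rows (tolerance 0.01), so depth could be read, and unlisted transcripts were set to 0. RPKM values, which the authors normalized to total reads, were scaled again by median-of-ratios factors, filtered at a mean of 1 and tested as log2(value + 0.5) in limma 3.58.1 (R 4.3.3, eBayes with trend, 3 groups a model, Benjamini-Hochberg, threshold 0.05, two-sided). The procedure was first run on simulated data with changes placed in footprints at 21 h only. That run did not test how well changes in RNA or at 6 h are found. No pair of replicates was 1 library deposited again, since chi-square over degrees of freedom was 1.46 to 4.09 between them. The files pair symbols with Ensembl IDs. Gene spans and promoters came from RefSeq GRCm38.p6 tables, with spans matched for 99.1% of transcripts.

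The 10 genes and all lists were chosen with earlier results of these data known. All 10 genes were named, and in each list the 2 genes with the largest absolute footprint difference at 21 h among those past the threshold, with the 5 transcripts most like Polr2a and Hexim1 in pattern. An allele of the line is not reported here, nor is 1 gene of the P-TEFb and 7SK list, which is left out of the counts of that list. Where a count was 5 or fewer, further genes were named after their values were seen. Alternatives were pseudocounts of 0.1 and 1, no filter and a filter of 5, no scaling, quantile normalization, no trend, only the groups compared, a replicate block, voom on the recovered reads, and each library left out. For translation efficiency, footprints over RNA taken by replicate number was a further alternative.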

Additional observations from a re-analysis of the deposited data

Results flagged for a closer look

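Footprints of 5 genes and RNA of 2 differed between Cis 6 h and Cis 21 h, by the limma contrast of the 21 h and 6 h libraries. Length of Cis exposure and time in culture cannot be told apart in it. In footprints the difference (21 h minus 6 h, log2) was 2.05 for Polr2a (adjusted p = 3.2e-05), 0.89 for Hexim1 (adjusted p = 0.00215), 0.73 for Supt6 (adjusted p = 0.00495), 0.61 for Supt5 (adjusted p = 0.00375) and 0.59 for Ccnt1 (adjusted p = 0.0135). In RNA it was 1.75 for Polr2a (adjusted p = 0.00017) and 0.89 for Ccnt1 (adjusted p = 0.01). In each case both 21 h libraries stood above both 6 h libraries. Ccnt1 was the gene whose calls rested on single libraries, with an adjusted p of 0.097 in footprints without 6 h replicate 1, and of 0.0573 and 0.061 in RNA without 6 h replicate 2 and 21 h replicate 2.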

How the results depend on the processing

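Of 1190 fold change values of the 10 genes under the alternatives, 1120 kept their direction and their side of the threshold, 19 lost the call, 23 gained one and 28 changed sign. This total covers footprints and RNA in every comparison, and translation efficiency at 21 h against PBS alone. The count of called genes in footprints at 6 h, 1 as reported, was 0 with no filter, with no trend and with the replicate block, 2 with a pseudocount of 1, a filter of 5, quantile normalization or only the groups compared, and 3 with voom, and ran from 0 to 2 with 1 library left out. In RNA at 6 h it was 2 with voom, against 0, namely Hexim1 (adjusted p = 3.14e-05) and Polr2a (adjusted p = 0.038). In RNA between 21 h and 6 h it was 4 with a filter of 5 and 5 with no scaling or with voom, against 2, and ran from 1 to 2 with 1 library left out. Leaving out 1 library gave 5 to 8 genes in footprints at 21 h, 4 to 5 in footprints between 21 h and 6 h and 4 to 5 in RNA at 21 h. Counts for translation efficiency were 0 throughout. Where these changes came from was not tested.

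Changes of sign were all in values near 0. Supt5 footprints at 6 h became -0.0165 under quantile normalization and -0.0027 with voom, with a range of -0.059 to 0.060 with 1 library left out. Nelfe became -0.074 in footprints at 21 h under quantile normalization (range -0.077 to 0.12) and -0.025 in RNA at 6 h with no scaling, and its RNA between 21 h and 6 h ranged from -0.0022 to 0.17. In translation efficiency at 21 h, with no scaling, Polr2a became -0.0080, Polr2b -0.024 and Supt5 -0.041, and Supt5 became -0.0015 with a pseudocount of 0.1 and -0.011 with voom. The ranges there with 1 library left out were -0.19 to 0.23 for Polr2b, -0.15 to 0.17 for Supt5 and -0.22 to 0.078 for Supt6. Other ranges with 1 library left out were -0.043 to 0.24 for Ell2 and -0.28 to 0.024 for Supt6 in footprints at 6 h, -0.16 to 0.31 for Polr2c and -0.11 to 0.24 for Ell2 in RNA at 6 h, and -0.085 to 0.33 for Polr2b in RNA between 21 h and 6 h.

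Same-numbered libraries did not deviate together over transcripts (correlations of -0.014 to 0.021). The methods do not state whether a shared replicate number marks a shared culture or lysate. With the replicate number as a block, Hexim1 in footprints at 6 h had an adjusted p of 0.0564 in limma. The counts of called genes were then 7 and 5 in footprints at 21 h against PBS and 6 h, and 5 and 2 in RNA, as reported. The block moved list counts at 21 h from 0 to 1 for other Pol II subunits, and from 4 to 2 for P-TEFb and 7SK, in RNA, and from 1 to 2 for the super elongation complex and from 2 to 1 for Integrator in footprints. With 1 library left out of a group, the lone library was taken to vary like the other groups. RNA depth limits Hexim1, Ell2 and Polr2c, whose RNA reads were lowest.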
